A study of Drosophila melanogaster with 2 samples.

Results

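The 49 genes described here encode transcription factors that lay out the body plan of Drosophila melanogaster. They are the 8 Hox genes (lab, pb, Dfd, Scr, Antp, Ubx, abd-A and Abd-B), 4 gap genes (hb, Kr, kni and gt), 9 pair-rule genes (eve, ftz, prd, odd, run, slp1, slp2, opa and h), the segment polarity pair en and inv, 7 genes of wing patterning (vg, nub, ap, sd, salm, salr and bi), 10 genes of leg and antenna patterning and Hox cofactors (Dll, hth, exd, dac, al, B-H1, B-H2, bab1, bab2 and tsh), 4 genes of eye determination (ey, toy, so and eya), 3 of the notum and sense organs (ara, caup and ct) and 2 of the snail family (sna and esg). They were taken as a named list, with no measured value, from 13968 protein-coding genes on the chromosome arms, and all 49 were found in the annotation, h under its current symbol hry.

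Hr38 binding was mapped by chromatin immunoprecipitation and sequencing (ChIP-seq) in 1 group of 2 biological replicates of whole white prepupae, males and females pooled, with an antibody against GFP. The animals came from a transgenic line that stably expresses Hr38 with GFP at its C terminus, their age is labelled as 48 h with no starting point, and chromatin was broken by sonication. The sequence that drives the fusion, and whether untagged Hr38 is also made, were not given in the sources used here. Whole animals were used, so a listed region cannot be assigned to a disc or another tissue.

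Hr38 is the fly member of the Nr4a nuclear receptors, which bind DNA as monomers at the NBRE, the nuclear receptor core site with an A-rich extension. Hox genes give segments their identity, gap and pair-rule genes subdivide the embryo, and many of the same factors are used again in the imaginal discs, the larval pouches that become wings, legs and eyes in the prepupa and pupa. Their enhancers lie in long introns and in wide intergenic stretches, and Polycomb and trithorax group proteins keep their states of expression.

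Each list gives regions with a summit and a score, which is the authors' own value on a scale that is not stated, and ranks below run from 1 for the highest score of a list. The thresholded list held 768 peaks, the pooled list 19279 regions, replicate 1 30000 regions and replicate 2 29031 regions on the arms. The thresholded peaks were the 768 highest regions of the pooled list, with scores down to 78.0, while the other lists run on into background regions by design. The depth of the libraries is unknown. A summit was counted in 3 windows, within 1 kb of any transcription start site (TSS) of the gene, in the gene span, and within the span extended by 20 kb on either side. Regions of the same list can overlap each other, and each summit was counted on its own. Each gene was set beside the 200 other protein-coding genes nearest to it in length. For the longest genes these sets are wide, such as 63.0 to 248 kb for hth (132 kb).

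No patterning factor gene held a thresholded peak. Within 1 kb of a TSS the count was 0 of 49, which allows a share of up to 6.12% by a limit of 3 counts and 7.27% by the 95% Wilson interval, beside a mean of 6.91% of genes of similar length and 4.74% of all protein-coding genes. In the gene span it was again 0 of 49, beside 9.92% of genes of similar length and 3.31% of all genes. Within 20 kb of the span 7 of the 49 genes had a peak (14.3%, 95% Wilson interval 7.10 to 26.7%), beside 35.5% of genes of similar length and 32% of all genes. The intervals here and below cover counting error only, and no test was made, since the genes were chosen with results of these data known.

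**Figure D1:**
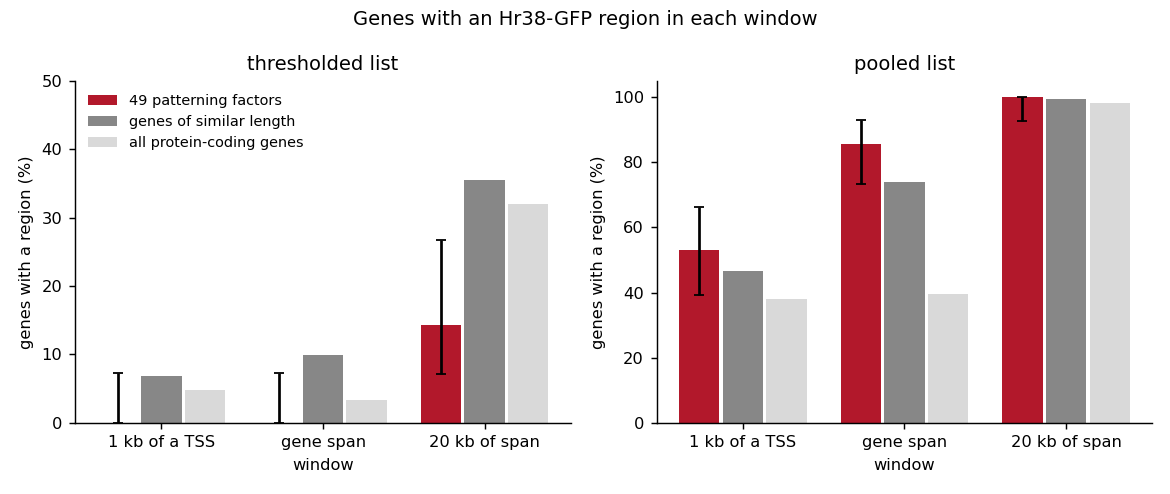
Percent of genes with a region in each of 3 windows (x axis) in the thresholded list (left) and the pooled list (right), for the 49 patterning factors (red, with 95% Wilson intervals), genes of similar length (dark grey) and all protein-coding genes (light grey). The red bars are at 0 and 0 within 1 kb of a TSS and in the span of the thresholded list, and at 53.1, 85.7 and 100% in the pooled list.

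In the pooled list, where weak regions are kept, the same genes were as well or better represented. Of the 49, 26 had a pooled region within 1 kb of a TSS (53.1%, 39.4 to 66.3%), beside 46.8% of genes of similar length and 37.9% of all genes. In the span it was 42 of 49 (85.7%, 73.3 to 92.9%), beside 73.9% of genes of similar length and 39.7% of all genes, and within 20 kb it was 49 of 49, beside 98.3% of all genes. Replicate 1 listed a region within 1 kb of a TSS for 24 genes, in the span for 45 and within 20 kb for 49, beside 44.3, 48.8 and 98.6% of all genes. Replicate 2 listed them for 33, 41 and 49 genes, beside 53.1, 50.2 and 98.6% of all genes. In both replicate lists the TSS share of the patterning factors was within a few percentage points of that of genes of similar length (48.98% beside 51.9% in replicate 1, and 67.3% beside 64.3% in replicate 2). In the span the shares were 91.8% beside 80.2% in replicate 1 and 83.7% beside 82.8% in replicate 2. The pooled difference in the span was thus nearly absent in replicate 2.

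The number of regions per gene followed length. The median patterning factor gene was 15.2 kb long (1.43 to 132 kb), beside 14.8 kb in the sets of similar length and 2.16 kb over all genes. On average 4.18 pooled regions lay in the span of a patterning factor, beside 3.35 in genes of similar length, and the means were 6.33 beside 5.16 in replicate 1 and 5.84 beside 5.11 in replicate 2. The place of a gene is the percent of its 200 similar-length genes that had fewer regions, with ties counted at 50%. The median place in the pooled list was 67, with 33 genes above 50 and 16 below. It was lower in replicate 2 alone, at 57.8 over its whole list and 52.5 over its 19279 highest regions. Within 20 kb the means were 10.1 pooled regions around patterning factors and 10.2 around genes of similar length, with 16.4 beside 14.9 in replicate 1 and 15.7 beside 16.0 in replicate 2, so the libraries differed in direction there.

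**Figure D2:**
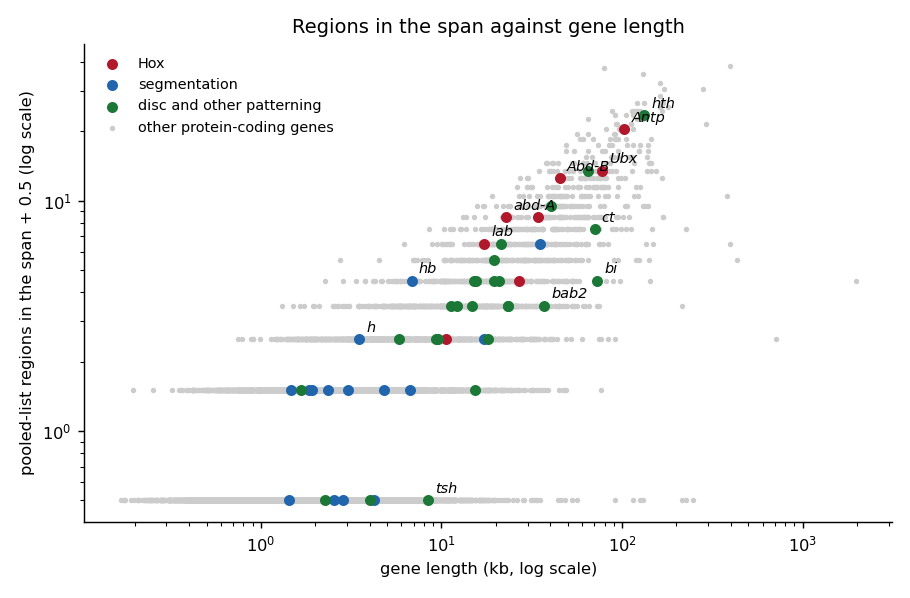
Pooled-list regions in the gene span, with 0.5 added so that genes with none can be drawn (y axis, log scale), against gene length in kb (x axis, log scale), for Hox genes (red), segmentation genes (blue), disc and other patterning genes (green) and all other protein-coding genes (grey). The coloured points run through the grey cloud, with hb, h, abd-A and Abd-B in its upper part and bi and tsh in its lower part.

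The genomic setting of the patterning factors differed from that of other long genes. The stretch between the flanking protein-coding genes had a median of 49.1 kb, beside 20.9 kb for genes of similar length and 6.85 kb for all genes. The window of 20 kb held the TSS of a median of 2 other protein-coding genes (0 to 13), beside 7 for genes of similar length and 8 for all genes. Fewer other genes near a patterning factor thus went together with fewer thresholded peaks near it, and the part of this in the 14.3% beside 35.5% was not tested.

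Around the 7 genes lay 9 thresholded peaks within 20 kb of a span, and 8 of the 9 were nearest to the TSS of another gene. The peak near eya, whose product is a partner of the so protein, scored 207 at rank 72 (62 in replicate 1 and 92 in replicate 2). Its summit was 85 bp from a TSS of Trmt6 and 15228 bp upstream of eya. The peak near eve, at rank 73 (68 and 82 in the replicates), lay 110 bp from a TSS of Pal1 and 19351 bp upstream of eve. These are places among the highest in each library, at promoters of neighbours. The peak near Abd-B, the Hox gene of the hindmost segments, scored 151 at rank 149 (114 and 332), 150 bp from a TSS of CG18622 and 14464 bp upstream of Abd-B. The peak near dac, a factor of mid-leg and eye development, scored 108 at rank 368, overlapped no region of replicate 1 and ranked 346 in replicate 2, and lay 1378 bp from a TSS of Tpr2. The peak near bab1, a gene of leg and abdominal patterning, scored 99.2 at rank 451 (1105 and 250), 1917 bp from a TSS of CG9205. The peak near B-H2, a Bar homeobox gene, scored 93.8 at rank 503 (546 and 1197), 905 bp from a TSS of Fim. By class, 4 of the 8 were at promoters and 4 in introns.

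**Figure D3:**
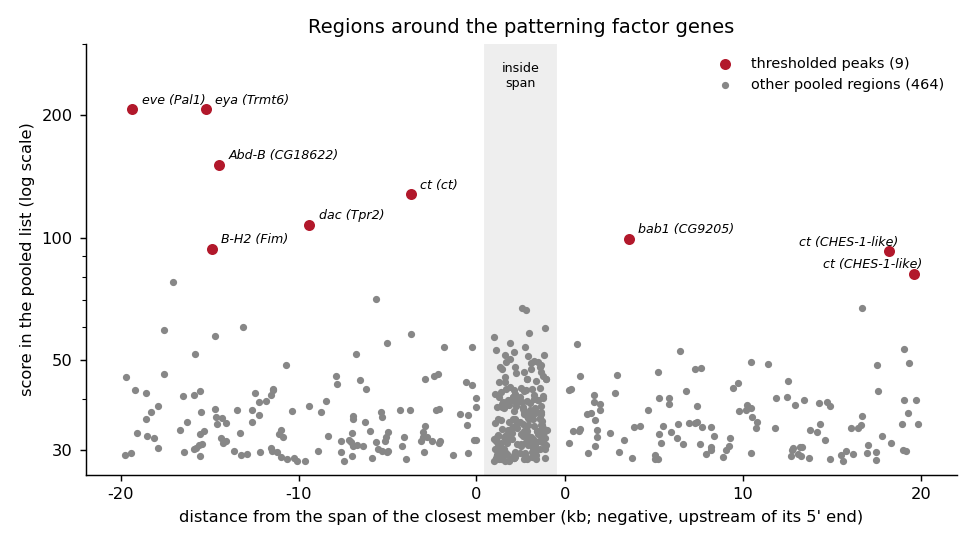
Score in the pooled list (y axis, log scale) of the 473 regions in or within 20 kb of a patterning factor gene against distance from the closest gene of the 49 in kb (x axis, negative upstream), with regions inside a span spread at random across the grey band. The 9 thresholded peaks (red) carry the patterning gene and, in brackets, the gene with the nearest TSS, and none of the 9 lies in the grey band.

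The single peak with a patterning factor as its nearest gene lay upstream of ct, which encodes the Cut homeodomain protein of external sense organs and of the wing margin. It scored 127.9, ranking 240 of the pooled regions, 400 in replicate 1 and 140 in replicate 2. Its -log10 q was 2.91, the highest value in the pooled list, which the peaks near eya, eve, Abd-B and dac share. The peak spans chrX:7604528-7604907 in dm6 and its summit was 3710 bp upstream of the first ct TSS, in intergenic sequence. It was also the single thresholded peak in the stretch between flanking genes of any of the 49. The span of ct, 70.4 kb long, held 7 pooled regions, beside a mean of 9.93 in genes of similar length. The highest of the 7, in an intron 5080 bp from a TSS, scored 53.8 at rank 1930, and the other 6 ranked between 6689 and 18497. Of those 7 regions, the one at rank 1930 and one at rank 13636 were overlapped by both replicate lists. Downstream of ct, 2 more thresholded peaks (scores 92.4 and 81.4, ranks 518 and 688) lay 376 and 1746 bp from a TSS of CHES-1-like, a forkhead factor gene.

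The sequence under the ct peak is shown because it is the one thresholded peak assigned to a patterning factor by its nearest TSS, and that upstream of esg, which encodes a snail-family factor that keeps imaginal and stem cells diploid and undifferentiated, because it is the next highest pooled region with a gene of the list as its nearest. The esg region lay 5659 bp upstream of the gene at chr2L:15328017-15328396, with a score of 70.5 at rank 950 (1531 in replicate 1 and 1019 in replicate 2), and esg itself held no region in any list. Both windows are 300 bases around the summit on the plus strand, which is the strand of both genes, from release 6 of the genome (dm6) at chrX:7604568-7604867 and chr2L:15328057-15328356. Capitals mark matches to GAGAG, the binding sequence of GAGA factor (Trl), a trithorax group protein, and to the other motifs described below.
ct upstream: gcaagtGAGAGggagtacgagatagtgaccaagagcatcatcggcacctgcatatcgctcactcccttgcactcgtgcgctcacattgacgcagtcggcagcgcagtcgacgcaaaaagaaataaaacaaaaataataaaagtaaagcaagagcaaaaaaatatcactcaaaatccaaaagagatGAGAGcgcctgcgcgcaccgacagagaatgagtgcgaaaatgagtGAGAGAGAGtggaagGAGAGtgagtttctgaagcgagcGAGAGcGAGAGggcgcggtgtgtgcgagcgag
esg upstream: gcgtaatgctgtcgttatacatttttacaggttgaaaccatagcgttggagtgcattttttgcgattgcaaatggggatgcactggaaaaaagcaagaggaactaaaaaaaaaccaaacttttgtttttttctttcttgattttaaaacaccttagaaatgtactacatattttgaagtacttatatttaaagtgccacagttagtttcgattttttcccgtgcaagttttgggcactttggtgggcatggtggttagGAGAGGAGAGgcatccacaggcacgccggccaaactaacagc
GAGAG was present 8 times in the ct window and 2 times in the esg window, counting overlapping matches on both strands, and neither window held the NBRE or its core. The ct window was 50% GC and the esg window 39.3% GC.

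Away from these peaks, the regions at the genes themselves were of middling score. The pooled list held 216 regions in a span or within 1 kb of a TSS of the 49 genes. Some of the 216 overlap, such as 16932538 to 16932917 and 16932759 to 16933138 in the coding sequence of Abd-B. The intervals treat all regions as independent, also those that overlap or share a gene. The median score of the 216 was 35.1, beside 34.8 for the other 19063 pooled regions, and the highest was 66.9, below the lowest thresholded peak. Their -log10 q had a median of 0.0630 and reached 1.18. Of the 216, 112 (51.9%) were in the upper 50% of the pooled list, beside 49.98% of the other regions, 46 (21.3%, 16.4 to 27.2%) in the upper 25%, beside 25.04%, and 6 (2.78%, 1.28 to 5.93%) in the upper 10%, beside 10.1%. Of the 11726 pooled regions at any gene in the similar-length sets of the 49, 11.02% were in the upper 10%. That share is over 1 combined set of regions, so length was not matched gene by gene. The low share at the top rested on replicate 2. With each replicate list cut to the pooled length, the upper 10% held 17 of 195 regions at patterning factors in replicate 1 (8.72%, beside 10.01% of the others) and 8 of 203 in replicate 2 (3.94%, beside 10.1%).

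**Figure D4:**
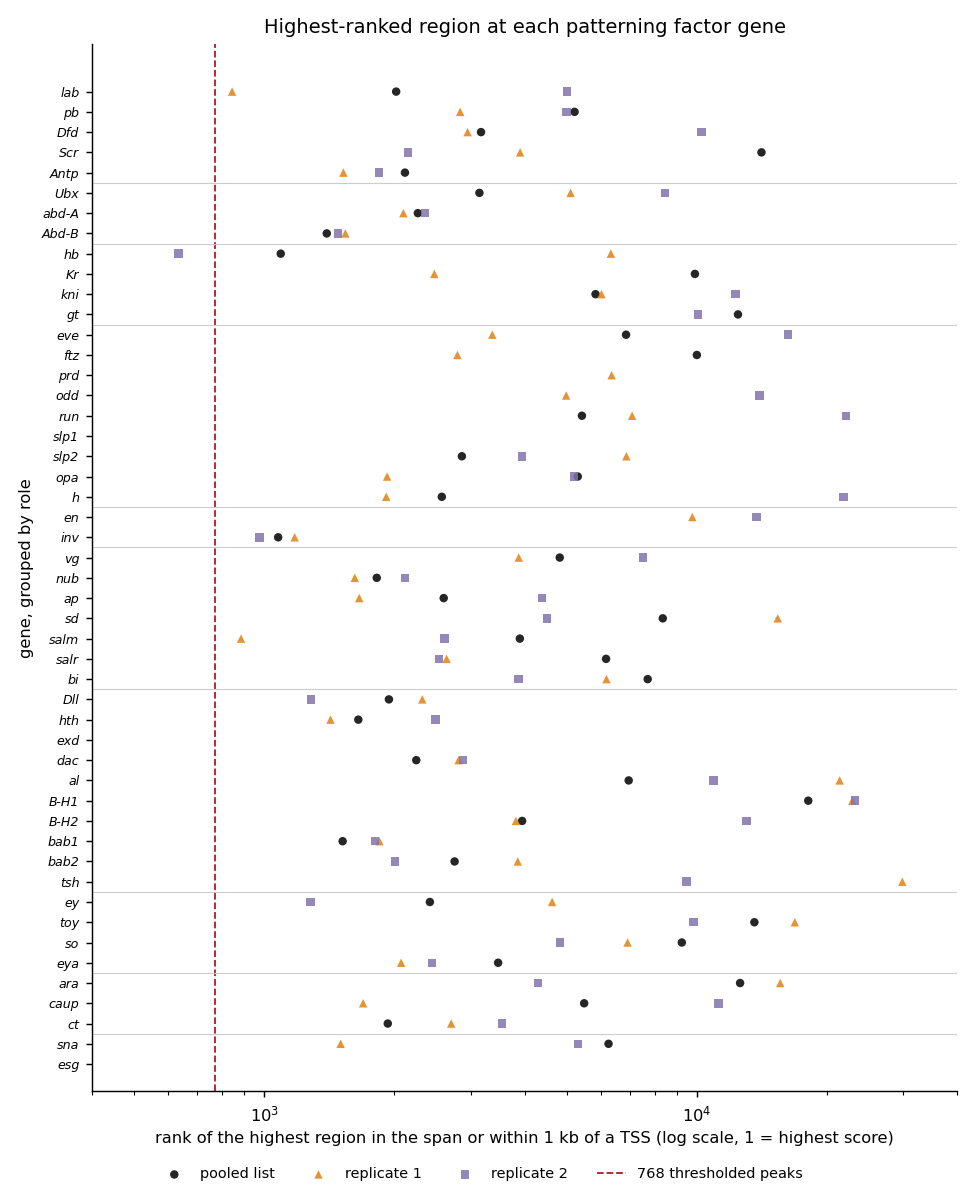
Rank of the highest-scoring region in the span or within 1 kb of a TSS of each of the 49 genes (x axis, log scale, 1 is the highest score of the list), with genes in rows grouped by role, for the pooled list (black circles), replicate 1 (orange triangles) and replicate 2 (violet squares). A gene with no symbol has no region, and all points but that of hb in replicate 2 lie to the right of the dashed line at rank 768.

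The 6 regions of the upper 10% belonged to 6 genes, and the libraries differed over most of them. The highest was in an intron of inv, a homeobox gene next to en with which it shares regulatory sequence, at 11499929 to 11500308 on 2R, with a score of 66.9 at rank 1077, and it ranked 1176 in replicate 1 and 975 in replicate 2. The next was at a promoter of hb, the anterior gap gene, 354 bp from a TSS, with a score of 66.3 at rank 1092. It ranked 20298 in replicate 1 and 633 in replicate 2, which places it among the 768 highest regions of replicate 2 alone. The Abd-B region, in a coding exon, scored 59.8 at rank 1395 (1540 in replicate 1 and 6664 in replicate 2). An intron of bab1 held one at rank 1518 (1846 and 4483) and an intron of hth one at rank 1650 (1423 and 12387). The sixth, at rank 1820 (4766 and 4618), was in an intron of nub, the POU-domain gene of the wing hinge and blade, 1363 bp from a TSS of Ref2. Just outside the upper 10% were the ct intron at rank 1930 and a Dll promoter region at rank 1942. By genes, 6 of 49 had a region in the upper 10% of the pooled list, beside 26.2% of genes of similar length and 12.5% of all genes. With replicate 1 alone, cut to the same length of list, 13 did (26.5%), beside 26.5 and 12.3%, and with replicate 2 alone 7 did (14.3%), beside 26 and 12.5%. The gap to genes of similar length was thus absent in replicate 1.

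The best rank of a gene in the pooled list had a median of 3921.5 over the 42 genes with a region and ran from 1077 at inv to 18084 at B-H1. The highest region of replicate 1 at any of the genes was at lab (rank 843) and that of replicate 2 was at hb (rank 633). In all, 39 genes had a region at the gene in each of the 3 unthresholded lists (79.6%), beside 72.2% of genes of similar length and 40.2% of all genes. The 3 genes slp1, exd and esg had none in any list. Genes of their lengths (1.43, 4.04 and 2.27 kb) had means of only 0.205, 0.695 and 0.405 pooled regions in the span. The share of all genes with none in any list is not given here. Of the 216 pooled regions, 92 (42.6%) were overlapped by both replicate lists, beside 44.1% of the other pooled regions, while 69 were overlapped by replicate 1 alone, 50 by replicate 2 alone and 5 by neither.

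Among the Hox genes, those of the bithorax complex had more pooled regions than the mean of their length. Ubx, which sets the identity of the haltere-bearing segment, had 13 pooled regions in its 77.8 kb, with 20 in replicate 1 and 14 in replicate 2, beside means of 10.4, 16.8 and 15.3 in genes of similar length, so that it was below its mean in replicate 2. Its neighbour abd-A, for the middle abdomen, had 8 (8 and 7 in the replicates), beside 3.83 (5.75 and 5.56), at pooled place 95.8. Abd-B had 12 (14 and 17), beside 6.94 (10.97 and 10.62), at place 91.8. Both were above their means in all 3 lists.

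In the Antennapedia complex the counts were more uneven. Means beside a count, here and for the genes that follow, are of the pooled list unless given for the replicates. The head gene lab had 6 pooled regions (6 and 6 in the replicates), beside a mean of 2.99, at place 92, and pb, the gene of the mouthparts, had 8 (12 and 10), beside 5.34. Dfd, for the mandibular and maxillary segments, had 2 (5 and 2), beside 1.94 (2.59 and 2.98), below its mean in replicate 2 alone. Scr, for the labial and first thoracic segments, had 4 (3 and 5), beside 4.53, with its highest at rank 14098. Antp, for the thorax, had 20 in its 103 kb (36 and 28), beside 12.53 (20.7 and 18.4) in genes of 61.9 to 169 kb. Its highest, at rank 2115, was an intron region that ranked 1524 in replicate 1 and overlapped none of replicate 2.

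Both complexes were denser in regions than the arm that holds them, and neither held a thresholded peak. The Antennapedia complex, from the first base of lab to the last of Antp (6661427 to 6999228 on 3R, 337.8 kb), had 73 pooled regions, or 2.16 per 10 kb, and the bithorax complex (16656623 to 16972236, 315.6 kb) had 68, or 2.15 per 10 kb, beside 1.58 for the arm. The values were 3.11 and 2.92 beside 2.48 in replicate 1, and 2.66 and 2.66 beside 2.27 in replicate 2. Of the 73, 41 were in the spans of the named genes and 32 between them, and of the 68, 33 were in the spans and 35 between. The arm as a whole includes gene-poor and repetitive sequence, which was not removed here. Among stretches named after their values were seen, the noncoding RNA gene lncRNA:iab8, between abd-A and Abd-B (16831116 to 16923231), held 19 regions (best rank 1943). lncRNA:bxd, upstream of Ubx (16742125 to 16773189), held 7 (best rank 3663). For their lengths, both counts were near the density of the bithorax complex as a whole. The highest region of the Antennapedia complex, at rank 1456, lay between pb and Dfd, 149 bp from a TSS of bcd, and that of the bithorax complex was the Abd-B coding region at rank 1395.

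**Figure D5:**
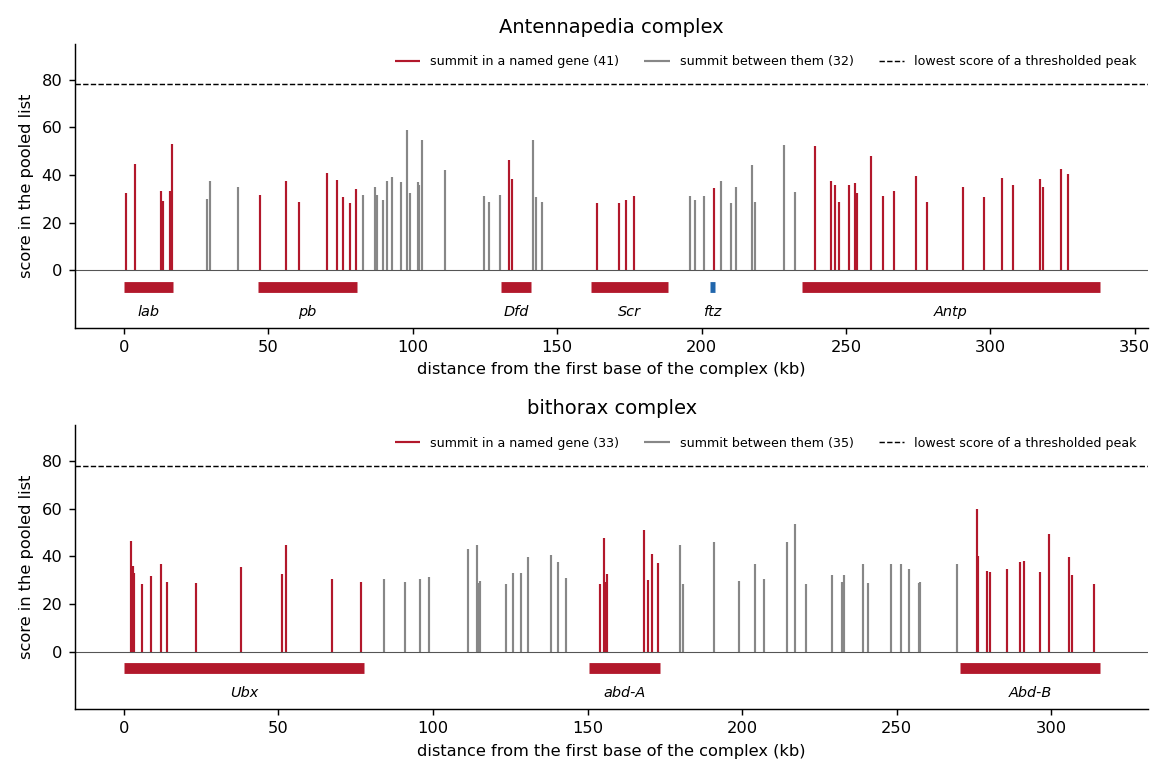
Score in the pooled list (y axis) of each region along the Antennapedia complex (top) and the bithorax complex (bottom) against distance from the first base of the complex in kb (x axis), with gene spans as bars below (Hox genes red, ftz blue). Red lines are regions in a named gene and grey lines those between, and all end under the dashed line at 78.0, the lowest score of a thresholded peak.

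The gap and pair-rule genes are short, and most held 1 region or none. The highest pooled place of the 49 was that of hb, at 97.8, with 4 pooled regions in 6.84 kb, beside a mean of 1.17. It had 4 in replicate 1, beside 1.68 (place 93.2), and 2 in replicate 2, beside 1.89 (place 57.8), and slp2 stood higher in both, at 99.5 and 93.5. Kr, kni and gt each had 1, with 2, 2 and 0 in replicate 1 and 0, 1 and 0 in replicate 2. Their highest ranks, 9893 for Kr, 5830 for kni and 12442 for gt, were lower than that of hb. Of the pair-rule genes, h, a repressor of the Hairy family, had 2 (2 and 1 in the replicates), beside 0.590, at place 92.5, and opa, a zinc-finger gene, had 2 in 17.2 kb (8 and 2), beside 2.99. eve, ftz, run and slp2 had 1 each, and prd, odd and slp1 had none in the pooled list.

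The segment polarity pair was split in the pooled list. inv had 6 pooled regions in 35.2 kb (8 in replicate 1 and 6 in replicate 2), beside means of 5.32 (8.77 and 8.04). It was thus below its means in both replicates. en, the homeobox gene that marks posterior compartments, had 0 pooled regions in its 4.21 kb, beside 0.78. It had 1 in replicate 1, beside 1.095, and 2 in replicate 2, beside 1.25. Including the space between them, the pair had 9 pooled regions in 53.8 kb, or 1.67 per 10 kb, beside 1.46 for the arm, but 2.05 beside 2.13 in replicate 2. Of the other member pairs in the pooled list, bab1 and bab2 had 1.42 beside 1.54 per 10 kb, and ara and caup 1.46 beside 1.54. B-H1 and B-H2 had 0.789 beside 0.920, and sna and esg 1.662 beside 1.665. Above their arm were salm and salr (1.845 beside 1.665) and slp1 and slp2 (2.22 beside 1.665). In a separate library the direction turned for every one of these pairs but slp1 and slp2. For bab1 and bab2 it was 2.839 beside 2.355 in replicate 1.

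All 7 wing genes had regions in the span in the pooled and both replicate lists, as did all Hox, eye, and notum and sense organ genes. Over all genes the shares in these lists were 39.7, 48.8 and 50.2%, and over all similar-length sets 73.9, 80.2 and 82.8%. nub had 9 (9 in replicate 1 and 17 in replicate 2), ap, the LIM homeobox selector of the dorsal wing, had 6 (8 and 8), and vg, the wing selector, had 4 (6 and 6). Those pooled counts are above the means of 6.52, 3.56 and 2.62 for their lengths, while nub in replicate 1 was below its mean of 10.2. sd, whose product binds DNA together with Vg, had 3 (4 and 6), beside 3.89, and salm and salr, the spalt genes, had 3 each (5 and 2, and 4 and 3). bi, the T-box gene of the central wing, also called omb, was the lowest of all 49 in place, at 10.8, with 4 pooled regions in 72.8 kb, beside 10.1 in genes of similar length. In the separate libraries bi had 12 in replicate 1 (place 27.5) and 17 in replicate 2 (place 66.5), so its place differed between the lists.

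Of the leg and antenna genes, hth, the homeobox gene that brings Exd into the nucleus, had the most pooled regions of all 49, and in replicate 1 Antp had more. In its 132 kb hth held 23 (31 in replicate 1 and 34 in replicate 2), beside means of 12.53 (20.9 and 18.4) in genes of 63.0 to 248 kb. The stretch of 239 kb to its neighbours held 44. The span of hth held 1.74 pooled regions per 10 kb, and its arm 1.58. exd, the Hox cofactor itself, is a short gene with 12 other protein-coding TSSs in its window, and it had 0 regions at the gene in every list and 2 pooled regions within 20 kb. bab1 had 13 (18 and 20), beside 9.06, while its neighbour bab2 had 3 (9 and 5), beside 5.81, at place 19.5. Dll, the selector of distal limbs, had 4 (8 and 2), beside 3.60, and dac had 5 (6 and 8), beside 3.26. tsh, a trunk and proximal limb gene, had 0 in its span in the pooled list (1 and 1 in the replicates), at place 14, but 23 in the 101 kb between its flanking genes. The arm of tsh had 1.665 per 10 kb. al, B-H1 and B-H2 had 2 each.

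The eye genes ey and toy, both Pax6 homologues, lie on chromosome 4, where the libraries differed in how many regions they listed (89 in replicate 1 and 328 in replicate 2 over the whole chromosome). Within 20 kb of ey there were 12 in replicate 1 and 22 in replicate 2, and for toy 7 and 20. In the span ey had 3 pooled regions (7 and 8) and toy 2 (3 and 4). The pooled counts are below the means of their lengths (3.96 and 3.11). In the replicates ey was above its means (5.88 and 5.64) and toy below them (4.49 and 4.79). The Six-family gene so had 4 (5 and 6), beside 2.76, and eya had 4 (6 and 6), beside 3.29.

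The Iroquois genes ara and caup, which specify the notum, had 1 and 3 pooled regions (2 and 3 for ara, 4 and 4 for caup in replicates 1 and 2), beside 2.64 and 1.91. The stretch around caup, 97.6 kb, held 25, where the arm had 1.54 per 10 kb. Some of the 25 were nearest to another gene, such as those 305 and 512 bp from a TSS of mirr. sna, the mesoderm factor, had 1 (1 and 1), beside 0.305. Of the 7 genes with no pooled region in the span, 6 had some between their flanking genes, and exd had 0. The counts were 23 at tsh (101 kb), 7 at en (67.8 kb), 6 at odd (38.3 kb) and 6 at esg (42.0 kb). They were 2 at prd (14.1 kb) and 2 at slp1 (23.4 kb). The arm had 1.462 per 10 kb for en and 1.665 for the other genes with some. The share of all genes with a region in such a stretch is not given here.

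Inside the genes, regions lay mainly in introns. Of the 216 regions, 131 (60.6%, 54.0 to 66.9%) were in introns, beside 50.5% at genes of similar length, and 27 (12.5%, 8.74 to 17.6%) within 500 bp of a protein-coding TSS, beside 18.7%. Coding exons held 38 (17.6%, 13.1 to 23.2%), beside 22.4%. The shares at genes of similar length, here and along the span below, are over the regions at any gene of the sets. Length was thus not matched gene by gene in them, and the part of length in these differences was not tested. Cut to the pooled length, replicate 1 alone gave 24.6% in coding exons and replicate 2 alone 10.8%, and promoter shares of 8.72 and 13.8%. The other regions of these lists differed likewise (22.5 and 13.8% in coding exons, 14.4 and 22.3% at promoters). From the 5' end, 4 equal stretches of the span held 47, 37, 58 and 63 of 205 regions (22.9, 18.0, 28.3 and 30.7%), beside 25.7, 23.6, 25.5 and 25.2% in genes of similar length.

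The median GC content within 100 bp of the summit was 48.5% at patterning factors (quartiles 41.8 and 56.2%), beside 46.3% in the other pooled regions (39.3 and 53.2%), and these ranges overlap widely. The medians were 51.7 beside 42.3% in promoters, with 27 regions and the same lower quartile of 35.8%, 61.4 beside 56.7% in coding exons and 45.8 beside 43.3% in introns. Motifs were searched on both strands in the same windows. The NBRE, AAAGGTCA, was in 0 of the 216, which allows a share of up to 1.39%, beside 0.666% of the other pooled regions and 0.260% of thresholded peaks. It was also in 0 of the 473 regions within 20 kb. Its core AGGTCA, which every NBRE contains, was in 4 (1.85%, 0.722 to 4.66%), at Abd-B, Ubx, ct and hth, beside 5.15% of the other pooled regions and 2.60% of thresholded peaks. With replicate 1 alone its share was 4.10%, beside 5.30% of the others. GAGAG was in 76 (35.2%, 29.1 to 41.8%), beside 25.1 and 28.6%. GCCAT, the core sequence bound by Pho, a DNA-binding Polycomb group protein, was in 95 (44.0%, 37.5 to 50.7%), beside 39.1 and 26.4%. In replicate 1 alone it was in 40%, beside 41.0% of the others, so the direction of that difference turned. Among the 38 coding-exon regions the pooled shares were 26.3% for GAGAG, 60.5% for GCCAT and 2.63% for AGGTCA. In the other coding-exon regions they were 24.8, 45.3 and 8.39%.

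The highest intron region of hth, coding-exon regions of Abd-B and h and the promoter-class region of lab are shown because they are among the top regions of their genes and because the others hold runs of CAG repeats. Each window is 300 bases of dm6 around the summit on the strand of the gene, at chr3R:10572442-10572741 (minus) for hth, chr3R:16932578-16932877 (minus) for Abd-B, chr3R:6677966-6678265 (minus) for lab, in which the summit was 474 bp from a TSS, and chr3L:8677993-8678292 (plus) for h. The lab region scored 52.9 at rank 2018 (1774 in replicate 1 and 21297 in replicate 2), and the h region 49.2 at rank 2573 (1914 in replicate 1, with no overlap in replicate 2). Capitals mark matches to GAGAG, to the Pho motif and to a run of 3 CAG units, on either strand.
hth intron: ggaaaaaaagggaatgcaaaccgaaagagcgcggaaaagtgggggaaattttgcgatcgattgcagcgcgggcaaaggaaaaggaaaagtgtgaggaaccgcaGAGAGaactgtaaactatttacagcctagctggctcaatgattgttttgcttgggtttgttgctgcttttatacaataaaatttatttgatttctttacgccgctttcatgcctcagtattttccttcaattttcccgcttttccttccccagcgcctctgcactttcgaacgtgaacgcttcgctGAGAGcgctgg
Abd-B coding exon: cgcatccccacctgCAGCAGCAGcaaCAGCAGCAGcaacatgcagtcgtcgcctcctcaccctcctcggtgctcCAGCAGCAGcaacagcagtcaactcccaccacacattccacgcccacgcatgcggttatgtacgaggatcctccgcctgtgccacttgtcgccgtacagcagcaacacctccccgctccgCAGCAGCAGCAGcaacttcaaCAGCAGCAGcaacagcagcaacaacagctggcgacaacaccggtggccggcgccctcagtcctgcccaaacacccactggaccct
lab near the TSS: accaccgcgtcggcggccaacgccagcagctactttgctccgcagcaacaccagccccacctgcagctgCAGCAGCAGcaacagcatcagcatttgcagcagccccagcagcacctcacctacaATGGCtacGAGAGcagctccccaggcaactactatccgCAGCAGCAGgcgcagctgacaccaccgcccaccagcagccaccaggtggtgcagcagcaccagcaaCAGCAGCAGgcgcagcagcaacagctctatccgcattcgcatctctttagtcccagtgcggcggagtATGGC
h coding exon: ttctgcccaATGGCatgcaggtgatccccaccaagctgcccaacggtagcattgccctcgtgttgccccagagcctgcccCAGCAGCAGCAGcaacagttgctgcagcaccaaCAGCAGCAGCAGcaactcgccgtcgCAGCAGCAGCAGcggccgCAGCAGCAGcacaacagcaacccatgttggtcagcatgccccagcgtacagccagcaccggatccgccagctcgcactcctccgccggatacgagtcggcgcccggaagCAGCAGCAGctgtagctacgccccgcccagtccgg
Overlapping matches of CAGCAGCAG numbered 6 at Abd-B, 3 at lab and 8 at h, and these windows were 62.7, 63 and 65.7% GC. The hth window had 2 matches of GAGAG and 45.3% GC.

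The CAG repeat was looked for after these sequences were seen, so its counts are a description of the list. CAGCAGCAG was within 100 bp of 17 of the 216 summits (7.87%, 4.97 to 12.2%), beside 3.47% of the other pooled regions and 1.04% of thresholded peaks. Within 50 bp it was in 5 (2.31%), beside 1.87%, so little of the difference was left nearer the summit. In coding exons it was in 9 of 38 (23.7%, 13.0 to 39.2%), beside 8.12% of the other coding-exon regions (within 50 bp 7.89 beside 4.62%), and the 9 belonged to Abd-B, B-H2, h, hb, lab, salm and so. Of the 38 coding-exon regions, 30 were overlapped by replicate 1 and 25 by replicate 2. CAG repeats, which read in frame encode glutamine, are common in the coding sequence of fly transcription factors.

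A second list held 36 patterning factors, among them tll, twi, Optix and C15. None had a thresholded peak within 1 kb of a TSS, 1 (tup, 2.78%) had one in the span and 6 (C15, Optix, tll, toe, tup and twi, 16.7%) within 20 kb, while 20 (55.6%) had a pooled region within 1 kb of a TSS and 26 (72.2%) in the span. Among 26 Polycomb and trithorax group genes, whose products act on Hox genes, 3 had a thresholded peak within 1 kb of a TSS (Trl, brm and ph-p, 11.5%), 4 in the span (Psc, Trl, osa and ph-p, 15.4%) and 16 within 20 kb (61.5%), and 14 (53.8%) and 18 (69.2%) had a pooled region in the first 2 windows. Over all protein-coding genes these shares were 4.74, 3.31 and 32% for thresholded peaks and 37.9 and 39.7% for pooled regions. These further lists were not set beside genes of similar length, and neighbouring genes of a list can count the same peak. The differences between the lists were not tested.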

How the data were processed

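ChIP-seq peak lists of 2 biological replicates were used in the narrowPeak layout on dm6. Per the text lists deposited with the libraries, the authors made each replicate list and the pooled list from alignments and a control file, and the thresholded list from these lists. The control was not analysed here. The aligner, caller and threshold were not given in the sources used here. Each region has a deposited score, on a scale not stated, and a -log10 q value. No read counts were used, so depth is unknown. Lists on dm3 were not used. Summits were assigned to gene models of Ensembl release 115 by the authors' summit offset, with sequence from release 6 of the genome. Summits were classed as promoter (500 bp), exonic, intronic or intergenic, in that order. Windows were 1 kb, the span and 20 kb, motif windows 100 bp on each side, and intervals 95% Wilson. A count of 0 is given with the share that 3 counts would make. The labels call the libraries biological replicates, and other window sizes, list lengths and gene sets are in the closing section. The members, the gene lists and the rule for named genes were chosen with earlier results of these data known. That rule gives values in full for genes with a thresholded peak within 20 kb or a region in the upper 10%, the 3 highest and 3 lowest in place, the Hox complexes and further members of each role. Counting was tested on simulated summits. Tools were Python 3.11.15, numpy 2.4.6, pandas 2.3.3, statsmodels 0.14.6 and matplotlib 3.10.9.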

Additional observations from a re-analysis of the deposited data

How the results depend on the processing

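No paired analysis was possible because the series has 1 group of 2 replicates. Of 101 values recomputed under other settings for 28 results, 65 stayed the same by the measure used (within 1.5 times for a count, within the 95% Wilson interval for the overlap share, and within 1 SD between the values of each replicate alone for places, other shares and densities) and 36 moved, 19 of them on leaving out a replicate and 17 otherwise. That SD rests on 2 values, so a small shift can count as a move and a wide gap between the libraries as none, as for the coding-exon share of 10.8 and 24.6%. The cause of these moves was not tested, apart from the longer or shorter windows and lists themselves.

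With 1 replicate left out, each list was replaced by the same number of highest regions of the other library. The genes with a thresholded peak within 1 kb of a TSS then numbered 0 to 1 and in the span 0 to 1, the 1 being hb in replicate 2 alone. The median place ran from 33 to 33.25 for thresholded peaks within 20 kb (32.75 as reported), 34.25 to 53.5 for pooled regions within 1 kb of a TSS (59.75 as reported), 52.5 to 64.75 in the span and 45.25 to 46.25 within 20 kb. The promoter share ran from 8.72 to 13.8%, the intron share from 60.5 to 66.5%, and genes with a region in the upper 10% from 7 to 13. Density per 10 kb ran from 1.81 to 1.92 in the Antennapedia complex and 1.77 to 2.06 in the bithorax complex, and shares with a motif from 0 to 0.493% for the NBRE, 1.48 to 4.10% for AGGTCA, 29.7 to 32.5% for GAGAG and 40 to 40.4% for GCCAT. In the other regions of these cut lists GAGAG was in 24.7% (replicate 1) and 24.9% (replicate 2), and GCCAT in 41.0 and 35.1%.

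Genes with a thresholded peak near the span numbered 3 within 10 kb (6.12%, beside 25.1% of genes of similar length and 20.6% of all genes) and 17 within 50 kb (34.7%, beside 54.9 and 53.0%), and 1 of the 9 peaks counted when the nearest TSS had to be that of the patterning factor. The upper 50% of the pooled list left 16 genes with a region within 1 kb of a TSS and densities of 1.09 and 0.919 per 10 kb in the Antennapedia and bithorax complexes. The values of other genes and of the arm under that cut are not given here. The median place for thresholded peaks within 20 kb was 32.5 among 100 and 32.25 among 400 genes nearest in length and 38.25 among genes nearest in domain length, and for pooled regions within 20 kb 48.88 among 400 and 54.25 by domain length. Overlap by both replicate lists was 35.6% where 50% of the region had to be covered. Within 250 bp AGGTCA was in 6.02%, beside 12.19% of the other pooled regions. GAGAG was in 19.4% within 50 bp, beside 13.53%, and in 63.0% within 250 bp, beside 50.04%. GCCAT was in 30.1% within 50 bp, beside 22.4%. Within 250 bp it was in 70.8%, beside 69.62%, so little of that difference was left in the wider window. In thresholded peaks the shares within 250 bp were 5.99% for AGGTCA, 61.59% for GAGAG and 58.46% for GCCAT.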
